A study of Saccharomyces cerevisiae with 12 samples.

Results

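The transcriptional response of *Saccharomyces cerevisiae* to the wall-binding dye Congo red (CR) was examined in cells that lack *SUS1*, as the difference between 3 arrays of CR-treated *sus1*Δ cells and 3 arrays of untreated *sus1*Δ cells. These are 6 of the 12 arrays of the study, and the other 6 hold the same treatment in the wild type (WT) strain. Every gene with an annotated probe set was described, with the brightest probe set standing for a gene that had several, so that 5449 genes were measured in each array. The strain is BY4741, a haploid *MATa* laboratory strain with the alleles *his3*Δ1, *leu2*Δ0, *met15*Δ0 and *ura3*Δ0, in which the mutant carries the *KanMX4* cassette in place of *SUS1*. Untreated cells grew in the same medium for the same time as treated cells, which received CR at 30 μg/mL. The sample titles and the methods give 3 h of treatment and the deposited design gives 2 h. Part of each culture received CR and the rest none, so a treated and an untreated array with the same replicate number come from 1 culture. The mutant is 1 deletion strain and no complemented strain is among the arrays.

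The yeast cell wall is built of glucan, a smaller amount of chitin, and mannoproteins that are held on the glucan by anchors or by alkali-sensitive bonds. Damage to it is sensed by membrane proteins of the Wsc and Mid families, which activate the GTPase Rho1, then Pkc1 and a cascade of kinases that ends in the MAP kinase Slt2. Slt2 activates the transcription factor Rlm1, and this route is called the cell wall integrity (CWI) pathway. CR binds chitin and glucan chains and disturbs the assembly of the wall. Sus1 is a small protein shared by the deubiquitinase module of the coactivator SAGA and by TREX-2, a complex of the nuclear pore that acts in mRNA export.

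The labels were checked first. *SUS1* read 2.55 to 3.05 without CR and 2.82 to 3.34 with CR on the log2 signal scale in the *sus1*Δ arrays, against 7.90 to 8.66 in the WT arrays. The deleted genes *LEU2*, *MET17* and *URA3* read 2.58 to 4.12 in the *sus1*Δ arrays, which gives the signal of a probe set without a target. *HIS3* read 9.48 to 9.72, and since *his3*Δ1 removes only part of the gene its probe set checks nothing. The **a**-specific genes *STE2*, *BAR1*, *AGA2*, *ASG7*, *MFA1*, *MFA2* and *STE6* read 7.81 to 12.54 in the *sus1*Δ arrays. Of the α-specific genes, *MF(ALPHA)1* and *MF(ALPHA)2* read 3.54 to 5.35 there, *STE3* 6.69 to 6.98 against 5.17 to 5.76 in the WT arrays, and *SAG1* 8.20 to 8.56, above part of the **a**-specific range and near its 8.13 to 8.57 in the WT arrays. Array medians lay between 9.08 and 9.16. The 3 untreated *sus1*Δ arrays correlated with each other at 0.9962 to 0.9969 across genes and the 3 treated ones at 0.9954 to 0.996. The median SD of a gene over 3 arrays was 0.0712 without and 0.0784 with CR in *sus1*Δ cells, against 0.148 in both WT groups, so the *sus1*Δ arrays agreed more closely than the WT arrays.

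CR raised a small set of genes in cells without Sus1. At an adjusted p under 0.05 (limma on the 6 arrays, two-sided, Benjamini-Hochberg over all genes), 198 of 5449 genes (3.63%) were higher and 144 (2.64%) were lower after CR. Only 27 of them (0.496%) were higher by at least 2-fold and 0 were lower by that much, and before the adjustment 516 genes were higher and 692 lower at a p under 0.05. Signals are relative to the total RNA of a culture, so a change in all cells and a larger change in some of them cannot be told apart. The induced genes, as those at least 2-fold higher are called here, lay between 2.10-fold (*YPR078C*) and 9.00-fold (*PIR3*). All 198 higher genes had every treated array above every untreated array, as did 610 of all genes (11.2%), and the 144 lower genes had every treated array below, as did 922 of all genes (16.9%). The changes outside the induced genes were small. The median change was 0.46 on the log2 scale over the higher genes and −0.33 over the lower genes, 67 genes were at least 1.5-fold higher and 6 lower by that much, and the median over all genes was −0.03.

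**Figure D1:**
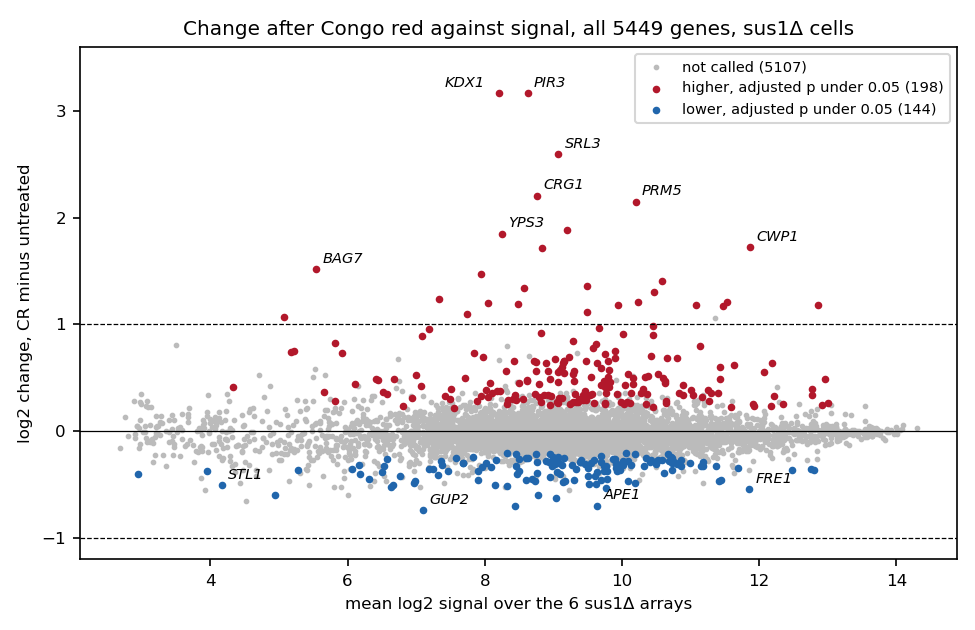
Change after CR in *sus1*Δ cells (log2, treated minus untreated, vertical axis) against the mean log2 signal over the 6 *sus1*Δ arrays (horizontal axis), 1 point for each of 5449 genes. Red points are the 198 genes higher and blue points the 144 genes lower at an adjusted p under 0.05, and the dashed lines mark 2-fold. The upper line is crossed by the 27 induced genes and by *HSP12*, which did not pass the test, and no point lies below the lower line.

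The number of calls depended on the model. With the culture as a block, 262 genes were higher and 247 lower, and in a model of all 12 arrays, whose variance the WT arrays share in setting, 76 were higher and 8 lower. The 27 induced genes passed in both, and 22 of the induced genes passed the methods' t-test after Benjamini-Hochberg adjustment. The higher genes were spread over the range of probe-set signal, with 39, 48, 58 and 53 in the 4 quartiles from the dimmest to the brightest, and so were the lower genes with 35, 34, 43 and 32.

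Of the 10 kinase and factor genes of the CWI pathway, 4 rose and 0 fell, against 3.63% and 2.64% of all genes. *KDX1*, which codes for a pseudokinase related to Slt2 and is a long-used reporter of the pathway, read 6.58, 6.73 and 6.53 in untreated cultures 1 to 3 and 9.85, 9.74 and 9.77 in the treated ones. Its change was 3.17 ± 0.07 (log2, moderated SE of limma, n = 3 arrays per group), or 8.98-fold, with an adjusted p of 1.5e-07. *SLT2*, the MAP kinase gene, went from 9.80, 9.99 and 9.86 to 11.34, 11.22 and 11.31, a change of 1.41 ± 0.07 (adjusted p = 2.1e-05). The treated arrays of both genes lay apart from the untreated ones by several times the spread within a group. *RLM1*, the gene of the transcription factor below Slt2, went from 8.33, 8.43 and 8.33 to 9.32, 9.22 and 9.31, which is 1.89-fold (adjusted p = 9.9e-05). *SMP1*, which codes for a relative of Rlm1, rose by 0.49 with an adjusted p of 0.046. The kinase genes between Rho1 and Slt2 did not pass the test, with changes of 0.05 for *BCK1*, 0.01 for *PKC1* and less than that for *MKK1* and *MKK2*.

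Above the kinases, 2 of 6 sensor genes, 2 of 8 genes of Rho1 and its regulators and 2 of 7 MAP kinase phosphatase genes rose, against 3.63% of all genes, and 0 fell. The medians of these lists were 0.06, 0.07 and −0.06. *MID2*, a mechanosensor gene, was 1.60-fold higher (adjusted p = 0.00060), from 9.53, 9.56 and 9.58 to 10.33, 10.14 and 10.24, and its paralog *MTL1* was 1.44-fold higher (adjusted p = 0.024). *SLG1*, which codes for the sensor Wsc1, changed by −0.01, and *WSC4* by −0.48 without passing the test. In the Rho1 list, *BAG7* and *RHO1* rose. *BAG7* codes for a GTPase-activating protein of Rho1, and it read 4.65, 4.96 and 4.73 without and 6.49, 5.87 and 6.54 with CR (2.87-fold, adjusted p = 0.0026). Its untreated signal was close to that of the deleted genes. *RHO1* itself rose by 0.25 ± 0.05. The phosphatase genes that rose were *PTP2* (1.96-fold) and *MSG5* (1.80-fold), which both code for phosphatases that act on Slt2.

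Of 110 genes on 6 lists of wall construction, 33 rose and 2 fell, against 3.63% and 2.64% of all genes, and 9 of the 33 were induced. Of the 24 structural proteins measured, 8 rose and 1 fell. *PIR3*, which codes for a wall protein with internal repeats that binds glucan through alkali-sensitive bonds, stood with *KDX1* at the top of all genes in *sus1*Δ cells. It read 6.96, 7.07 and 7.10 without and 10.24, 10.12 and 10.28 with CR, a change of 3.17 ± 0.07 (9.00-fold, adjusted p = 1.5e-07). Its relatives *HSP150* (0.49), *PIR5* (0.48) and *CIS3* (0.25) rose by far less, and *PIR1*, the divergent neighbour of *PIR3*, changed by 0.16 without passing the test. Among genes of anchored wall proteins, *CWP1* went from 10.95, 11.20 and 10.86 to 12.72, 12.73 and 12.73 (3.30-fold), *SED1* from 12.15, 12.45 and 12.19 to 13.44, 13.44 and 13.45 (2.27-fold), and *PST1* from 10.51, 10.65 and 10.31 to 11.76, 11.63 and 11.62 (2.27-fold). In these 3 genes the treated arrays agreed closely and most of the spread was among the untreated ones. *CCW14* rose by 0.55. *TIR3*, a gene of a mannoprotein linked to cold and anaerobic growth, fell by 0.49, and *TIP1* and *TIR1* of the same family had changes of −0.39 and −0.30 that did not pass the test.

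Of 17 genes of chitin synthesis and turnover, 9 rose and 0 fell, against 3.63% and 2.64% of all genes. The median change was 0.26 against −0.03 over all genes, 8 members did not pass, and 3 of those had changes below 0. *GFA1*, the gene of the enzyme that commits fructose 6-phosphate to amino sugars and so to chitin, went from 10.81, 10.91 and 10.93 to 12.05, 11.97 and 12.15 (2.26-fold, adjusted p = 5.7e-05). *PCM1*, which acts in the same route, was 1.74-fold higher. The chitin synthase genes *CHS1* and *CHS3* rose by 0.70 and 0.69, while *CHS2* changed by −0.24 without passing the test. *CHS3* makes most of the chitin of the wall, and it read 10.47, 10.46 and 10.43 without and 11.09, 11.10 and 11.23 with CR. Among genes that bring Chs3 to the membrane or activate it, those that rose were *CHS7* (0.53), *SKT5* (0.50) and *CHS6* (0.50). *RCR1*, whose overexpression gives resistance to CR, rose by 0.64. *CTS1*, the chitinase gene, rose by 0.26.

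In glucan synthesis 5 of 14 genes rose and 0 fell. For this list and the 3 that follow, the shares over all genes are 3.63% higher and 2.64% lower. *GSC2*, the gene of the stress-induced catalytic subunit of glucan synthase, was 2.47-fold higher, from 9.76, 10.01 and 9.67 to 11.34, 10.99 and 11.04 (adjusted p = 0.00060). *FKS1*, the gene of the subunit used in growing cells, rose by 0.40 ± 0.05, and the β-1,6-glucan genes *KNH1* and *KRE6* by 0.69 and 0.28. Of 23 genes of enzymes that cut and rejoin wall polymers, 7 rose and 1 fell. *CRH1*, which codes for a transglycosylase that links chitin to glucan, read 10.85, 11.02 and 10.93 without and 12.16, 12.06 and 12.20 with CR (2.31-fold), and *EXG2* and *DFG5* rose by 0.75 and 0.68. *CRR1*, a relative of *CRH1* used in spores, fell by 0.38. Genes of the yapsins, aspartic proteases anchored at the cell surface, rose in 3 of 6 cases. *YPS3* was 3.61-fold higher, *YPS1* 1.98-fold and *YPS6* 1.66-fold. *YPS3* read 9.40, 8.82 and 9.32 in treated cultures 1 to 3, so culture 2 was the lowest, yet it stayed well above the untreated 7.38, 7.30 and 7.30. Of 26 mannosyltransferase genes *KTR2* rose (2.54-fold) and 0 fell, which is near the shares of all genes, and the median was −0.07.

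**Figure D2:**
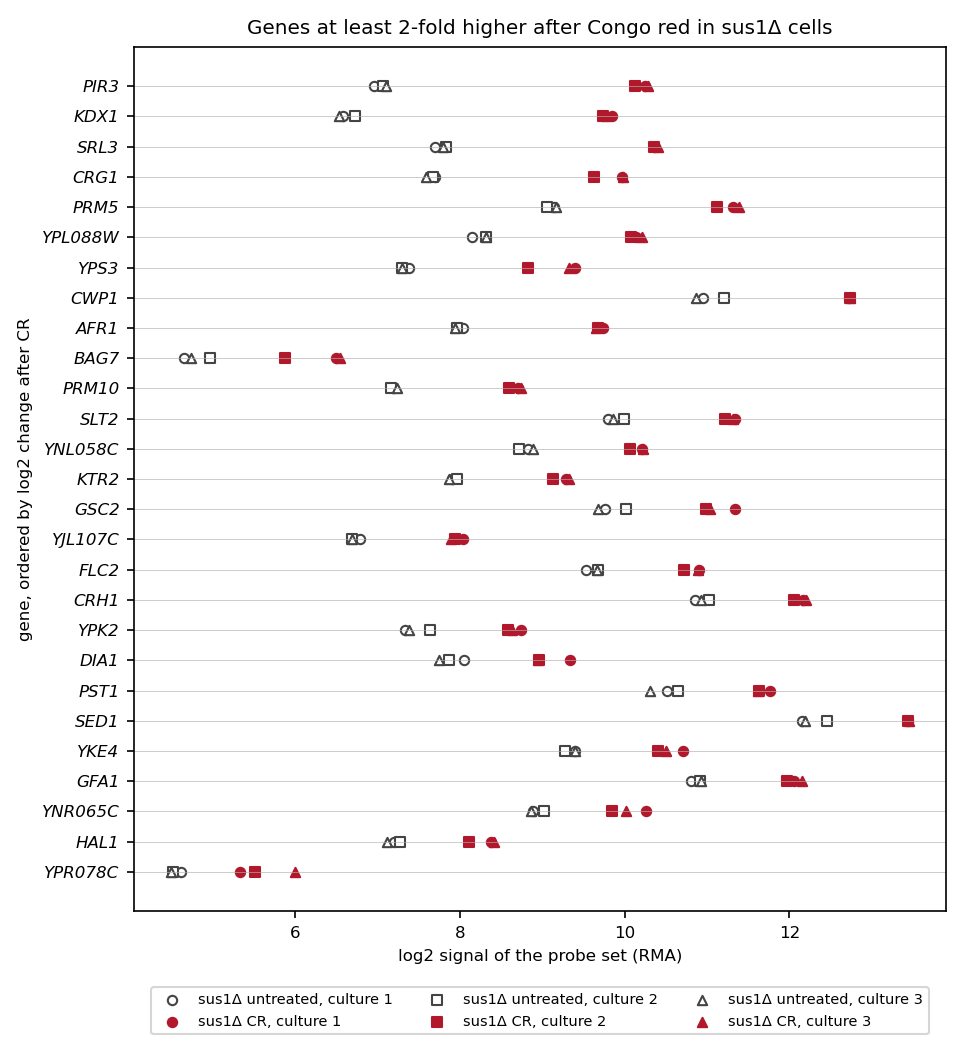
Log2 signal (horizontal axis) of the 27 genes at least 2-fold higher after CR in *sus1*Δ cells, in each of the 6 *sus1*Δ arrays, with the genes ordered by their change from *PIR3* at 3.17 to *YPR078C* at 1.07. Open symbols are untreated and red symbols CR-treated, and the symbol shape gives the culture. In every gene the 3 red symbols lie to the right of the 3 open ones.

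Induced genes outside the wall and the CWI cascade had a range of roles. *SRL3*, a paralog of the cell cycle repressor gene *WHI5*, read 7.70, 7.83 and 7.79 without and 10.35, 10.35 and 10.40 with CR, a 6.04-fold change with an adjusted p of 1.5e-07. *WHI5* itself changed by −0.22 without passing the test. *CRG1*, a methyltransferase gene, was 4.62-fold higher, with 9.97, 9.63 and 9.98 in the treated arrays against 7.59 to 7.69 in the untreated ones. *PRM5*, a membrane protein gene known as a target of the CWI pathway, was 4.44-fold higher and its paralog *YNL058C* 2.56-fold. *YPL088W*, which codes for a putative aryl alcohol dehydrogenase, was 3.68-fold higher, and no other of the 11 genes of that family measured passed the test. *AFR1*, a gene of the mating projection, went from 8.03, 7.96 and 7.94 to 9.73, 9.68 and 9.65 (3.28-fold). It was the 1 gene of 29 on the mating response list to pass, so the list did not move as a group (median 0.05).

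*PRM10* (2.78-fold) and *YJL107C* (2.36-fold) are annotated as overlapping genes on the same strand, and a transcript that spans both would be read by both probe sets. *FLC2* (2.32-fold) and *FLC1* (1.87-fold) code for membrane proteins linked to calcium and flavin transport, and *RCN2*, a calcineurin regulator gene, rose by 0.59. *CRZ1*, the transcription factor gene of that pathway, changed by 0.10 and did not pass. *YPK2*, the gene of a kinase below TORC2, was 2.30-fold higher and its paralog *YPK1* changed by 0.18 without passing. *HAL1*, a salt tolerance gene, was 2.14-fold higher, and *YKE4*, a zinc transporter gene, 2.27-fold. *DIA1* (2.29-fold) and the poorly characterised *YPR078C* (2.10-fold) complete the set with *YNR065C* (2.17-fold), which resembles the sorting receptor gene *PEP1*. *YPR078C* read 4.61, 4.52 and 4.49 without and 5.33, 5.51 and 5.99 with CR, and its untreated signal was close to that of the deleted genes. *PEP1* and *VTH1* did not pass the test, with 0.19 and 0.03.

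The 2-fold limit divides a continuous series. The 8 genes just inside it were *DIA1*, *PST1*, *SED1*, *YKE4*, *GFA1*, *YNR065C*, *HAL1* and *YPR078C*, with changes of 1.20 to 1.07. The 8 called genes just outside were *YPS1* (0.98), *PTP2* (0.97), *FMP33* (0.96), *RLM1* (0.92), *PUN1* (0.91), *FLC1* (0.90), *RTA1* (0.89) and *MSG5* (0.85). Several of these read as closely in replicate arrays as the genes inside. *PTP2* read 9.18, 9.15 and 9.22 without and 10.17, 10.07 and 10.21 with CR. *HSP12*, which codes for a membrane-stabilising stress protein, had a change of 1.06 and did not pass (adjusted p = 0.065), with 11.00, 11.29 and 10.20 without and 12.29, 11.73 and 11.64 with CR. It was higher within each of the 3 cultures and passed with the culture as a block (adjusted p = 0.025).

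In lists of general stress programs most members were not called, and their counts stand beside 3.63% higher and 2.64% lower over all genes. Of 40 genes of the environmental stress response, 3 rose (*FBP26* 0.68, *PFK26* 0.55 and *NTH1* 0.43) and 1 fell (*MRH1*, by 0.36). With the culture as a block 8 of these 40 rose and 2 fell, against 262 and 247 of all 5449 genes. The median of this list was 0.11 against −0.03 over all genes. Below 0 were 9 of the 40, against 3237 of all 5449 genes. *FBP26* and *PFK26* code for the enzymes that break down and make fructose 2,6-bisphosphate, and *NTH1* for a trehalase. Of 24 stress chaperone genes 0 rose and 1 fell, *HSP30*, by 0.52. The changes of *HSP26*, *HSP42*, *HSP104* and *SSA4* were −0.22, −0.06, −0.06 and −0.07 and did not pass. Of 22 osmotic stress genes 4 rose, *HAL1*, *SSK22* (0.66), *HOG1* (0.35) and *SSK1* (0.34), the last 3 of which belong to the high-osmolarity MAP kinase route. *STL1*, a glycerol transporter gene of the same list, fell by 0.50, but its treated signal of 3.86 to 4.01 was that of the deleted genes. *GPD1*, the glycerol synthesis gene, changed by 0.24 without passing. Of 22 genes of endoplasmic reticulum folding 2 rose, *ERO1* (0.36) and *HAC1* (0.23), and 4 did with the culture as a block. Of 30 autophagy genes *ATG8* (0.51), *ATG4* (0.23) and *ATG20* (0.21) rose, with an adjusted p of 0.054 for *ATG20* under the block.

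Genes lower after CR were lower by little. The 12 largest falls ran from *GUP2* (−0.74) through *SHU2*, *APE1*, *OPT1*, *AMF1*, *YDR222W*, *FRE1*, *PLB2*, *HSP30*, *IZH4* and *PMA2* to *MMP1* (−0.50). *GUP2*, an acyltransferase-like gene, read 7.48, 7.47 and 7.47 without and 6.70, 6.80 and 6.71 with CR (adjusted p = 0.00018). *SHU2*, a gene of homologous recombination and the convergent neighbour of *SED1*, read 8.86, 8.79 and 8.72 without and 8.11, 8.05 and 8.10 with CR. In both genes the drop was many times the spread of the arrays. *APE1*, the gene of a vacuolar aminopeptidase, fell by 0.70 ± 0.10, while *PRB1*, a vacuolar protease gene, rose by 0.51 ± 0.07 and *PEP4* changed by 0.15 without passing.

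Of 22 nutrient importer genes 2 fell and 1 rose, against 2.64% and 3.63% of all genes. *OPT1*, a peptide and glutathione transporter gene, read 9.37, 9.29 and 9.40 without and 8.52, 8.81 and 8.86 with CR (fell by 0.63), whereas its relative *OPT2* rose by 0.73. *AGP1*, an amino acid permease gene, fell by 0.26. Outside that list, *MMP1*, a transporter gene for S-methylmethionine, and *AMF1*, an ammonium facilitator gene, fell by 0.50 and 0.60. The treated *AMF1* signal of 4.55 to 4.69 was close to that of the deleted genes. Of 25 genes of iron handling 4 fell and 1 rose, against the same shares of all genes, and in the model of 12 arrays 0 fell. *FRE1*, the main surface reductase gene, went from 12.15, 12.06 and 12.18 to 11.41, 11.85 and 11.49 and fell by 0.54, *FET4* by 0.50, *FRE3* by 0.33 and *FTR1* by 0.32. *SMF1*, a manganese transporter gene on that list, rose by 0.54. The eisosome genes *SUR7* and *NCE102*, which mark furrows of the plasma membrane, fell by 0.33 and 0.35.

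The broadest movement downward was in ribosome biogenesis. Of 97 genes measured, 17 fell and 0 rose at an adjusted p under 0.05, against 2.64% of all genes lower, and the median change was −0.20. Each of the 97 had a change below 0, from −0.46 to −0.01, as did 3237 of all 5449 genes, and in 62 of them every treated array lay below every untreated one, as in 16.9% of all genes. The largest were *FAF1* (−0.46), *DHR2* (−0.43), *ECM1* (−0.37) and *REX4* (−0.35), all factors of pre-rRNA processing or subunit export. *FAF1* read 8.81, 8.78 and 8.91 without and 8.30, 8.43 and 8.38 with CR (adjusted p = 0.0050). With the culture as a block 29 of the 97 fell, against 247 of all 5449 genes. In the model of 12 arrays 0 of the 97 fell, and only 8 of all 5449 genes did. The medians of the list in cultures 1, 2 and 3 were −0.24, −0.14 and −0.23. After quantile normalization 96 of the 97 stayed below 0 and after median centring 97. Genes of the ribosome itself did not follow, since 0 of 128 cytosolic ribosomal protein genes passed in either direction (median −0.01), and neither did any of 69 for the mitochondrial ribosome. Many of these have near-identical copies, which the probe sets may not separate.

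**Figure D3:**
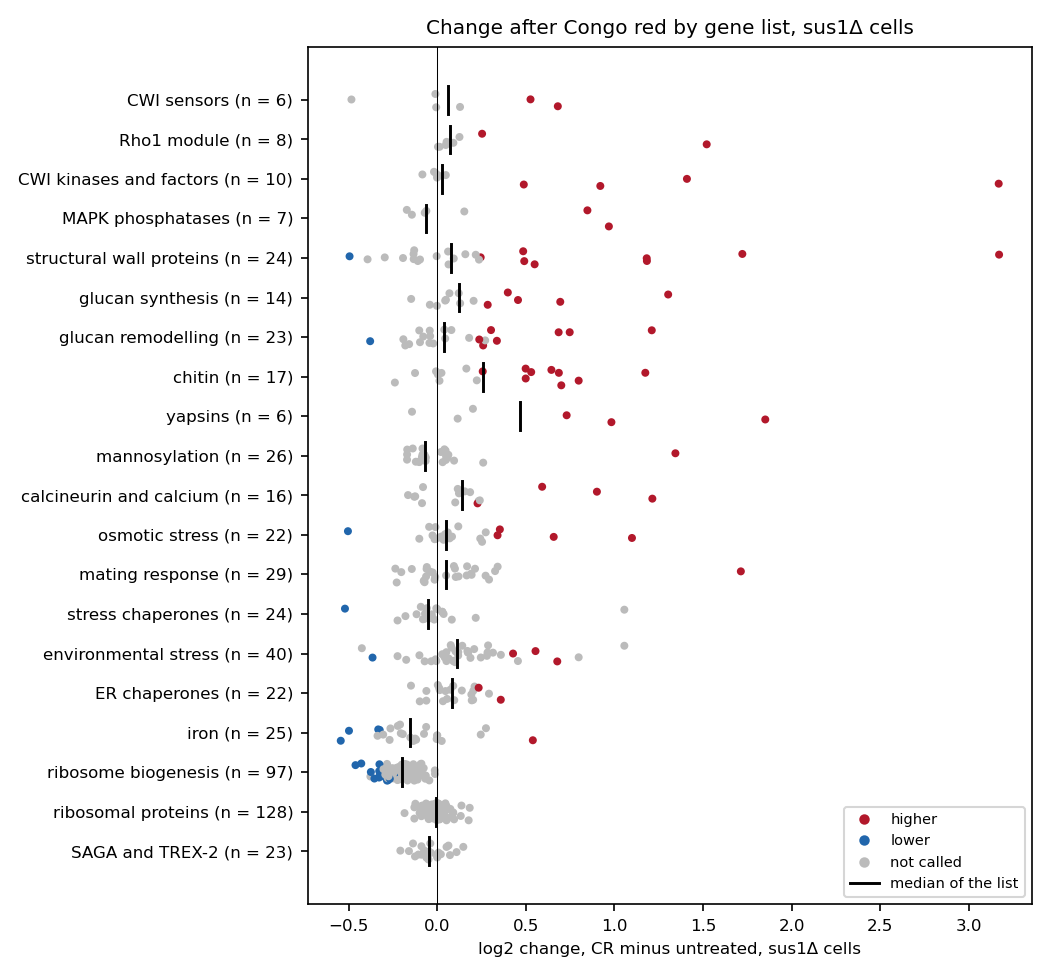
Change after CR in *sus1*Δ cells (log2, horizontal axis) of the members of 20 gene lists, 1 point per gene and a black bar at the median of each list. Red and blue points passed the test upward and downward. Chitin genes have their median at 0.26 with 9 red points, and the 97 ribosome biogenesis genes all lie below 0 with 17 blue points.

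Counts of other lists are given beside the 3.63% of all genes higher and 2.64% lower. At those shares, 0 calls in a short list says nothing of its members. None of the 23 genes of SAGA and TREX-2 passed, *SUS1* not among them, and their changes lay between −0.21 and 0.15. Of the 12 genes of the remodelling complex SWI/SNF only *SNF11* rose (0.47). None of 32 proteasome genes, 9 histone genes, 17 hexose transporter genes and 15 phosphate genes passed. With the culture as a block 5 of the phosphate genes were lower and 1 higher, against 247 and 262 of all 5449 genes. *PHO11*, an acid phosphatase gene, read 12.16, 11.10 and 11.03 without and 11.68, 10.64 and 10.51 with CR, with culture 1 the highest in both groups. Of 21 cyclin and G1/S genes *SRL3*, *POG1* (0.48) and *PCL1* (0.35) rose, and *PCL1* had an adjusted p of 0.052 under the block. Respiration genes gave 4 small rises of 50, the largest *CIT1* (0.38), with *COR1* at an adjusted p of 0.059 under the block. Of 10 genes chosen by the study itself from these arrays or as controls, 8 rose, which is no independent evidence, and *SUS1* and *ACT1* did not pass.

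The size of the change differed between the cultures, each of which is 1 treated and 1 untreated array. A difference between cultures thus cannot be told apart from a difference between arrays. The genes counted here share these arrays and are not repeated observations. Over the 27 induced genes the median change was 1.42 in culture 1, 1.18 in culture 2 and 1.45 in culture 3, and culture 2 had the smallest change in 22 of them. It had the smallest change in 134 of the 198 higher genes and in 79 of the 144 lower genes as well. The environmental stress list had medians of 0.27, −0.04 and 0.16 in cultures 1, 2 and 3. All 27 induced genes passed the test when any 1 array was left out, and only *YPR078C* went below 2-fold, without the treated array of culture 3. Without the treated array of culture 2 the count of induced genes was 31, with *RTA1*, *YPS1*, *PTP2* and *PUN1* added.

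Where called genes lay next to each other was examined after the values were seen. The annotation gives 5017 pairs of adjacent genes that were both measured. In 38 of them both were called, 18 with both higher, 8 with both lower and 12 with opposite changes. Of all 5449 genes 342 were called, and how many such pairs would arise without regard to position was not tested. The longest run was *FMP33* (0.96), *PIR5* (0.48), *HSP150* (0.49) and *CIS3* (0.25), the last 3 of which code for wall proteins with internal repeats. *YPS3* and *YPS1* are neighbours on 1 strand, and *RLM1* shares its upstream region with *YPL088W*. Of the 12 opposite pairs 7 were convergent, against 1332 of all 5017 pairs. Besides *SED1* and *SHU2* these included *SRL3* (2.60) with *SRP40* (−0.42) and *DFG5* (0.68) with *RNT1* (−0.48). The 27 induced genes had 47 measured neighbours, of which 6 were higher and 2 lower, against 3.63% and 2.64% of all genes. Among the higher ones are *PRM10* and *YJL107C*, the overlapping pair, each counted as the neighbour of the other. *YKL162C* is counted for both *PIR3* and *KDX1*. Both lower neighbours were convergent.

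Genes called in *sus1*Δ cells moved the same way in WT cells, most of them further. In the model of 12 arrays 512 genes (9.4%) were higher and 491 (9.01%) lower after CR in WT cells. The same model called 76 genes higher and 8 lower in *sus1*Δ cells. The *sus1*Δ calls compared with WT cells here come from the fit of the *sus1*Δ arrays alone. Counts of calls in the 2 strains are thus not like for like. All 198 genes higher in *sus1*Δ cells were above 0 in WT cells, 174 of them passing there, and their median change was 0.46 in *sus1*Δ and 0.82 in WT cells. Of the 144 lower genes 141 had the same sign in WT cells and 83 passed there, with medians of −0.33 and −0.45. Across all genes the changes of the 2 strains, which share no array, correlated at 0.816, a description only since genes are not replicates. Of the 27 induced genes, 4 had a larger change in *sus1*Δ than in WT cells, *PRM5*, *CWP1*, *SED1* and *YNL058C*, by 0.03 to 0.17, and none of these 4 differences passed the test of the interaction.

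The interaction is the change in *sus1*Δ cells minus the change in WT cells. It was below 0 at an adjusted p under 0.05 for 4 genes (0.0734%) and above 0 for 0 genes. All 4 rose in WT cells and had a smaller change in *sus1*Δ cells, where *SKM1* did not pass. These were *PIR3* (3.17 against 5.25 in WT cells, adjusted p = 0.0071), *YNR065C* (1.12 against 2.29, adjusted p = 0.024), *CRG1* (2.21 against 3.43, adjusted p = 0.039) and *SKM1* (0.07 against 0.76, adjusted p = 0.043). *SKM1*, which codes for a PAK-family kinase, read 8.69, 8.74 and 8.66 without and 8.76, 8.72 and 8.83 with CR in *sus1*Δ cells, so its groups overlapped. In WT cells it read 8.04, 8.27 and 8.11 without and 8.89, 8.88 and 8.94 with CR. Untreated *sus1*Δ arrays thus lay above untreated WT arrays, as for *PIR3* (6.96 to 7.10 against 5.86 to 6.64) and *CRG1* (7.59 to 7.69 against 7.31 to 7.51). For *YNR065C* they overlapped. With CR the *sus1*Δ arrays lay below the WT arrays in all 4 genes. Among these 4, *PIR3* alone passed in all 19 other settings of the test. The *AGA2*, *ASG7* and *MFA1* signals of WT culture 3 stood apart from those of the other WT cultures. Without its 2 arrays *PIR3*, *KDX1*, *SSK22* and *BRN1* passed, all below 0, and *YNR065C*, *CRG1* and *SKM1* did not.

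With the culture as a block the interaction passed for 45 genes. It was below 0 for 33, and all 33 had a rise in WT cells, among them 9 of the 27 induced genes such as *KDX1* (adjusted p = 0.021) and *GSC2* (adjusted p = 0.022). It was above 0 for 12, and all 12 had a fall in WT cells, among them *APE1* (fell by 0.70 in *sus1*Δ cells, WT change −1.62, adjusted p = 0.023) and *SHU2* (fell by 0.70, WT change −1.43, adjusted p = 0.026).

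In the model of 12 arrays 86 genes were at least 2-fold higher in WT cells (adjusted p under 0.05). Their *sus1*Δ calls are those of the fit of the *sus1*Δ arrays alone. Of the 86 genes, 70 were also higher in *sus1*Δ cells, the 27 induced genes among them, and 16 did not pass there. These 16 were *AMS1*, *ATP22*, *BOP2*, *DAL4*, *GPG1*, *HSP12*, *PDE1*, *PLB1*, *RTC3*, *TMA10*, *YCR099C*, *YGL230C*, *YGL258W-A*, *YMR315W-A*, *YNR064C* and *YPT53*. Their changes in *sus1*Δ cells ran from −0.03 for *YGL258W-A* to 1.06 for *HSP12*, and for none of them did the interaction pass without the block. With the block it passed for 3, *AMS1* (adjusted p = 0.039), *DAL4* (adjusted p = 0.048) and *YGL258W-A* (adjusted p = 0.028), all below 0. *PLB1* (0.51, adjusted p = 0.0502) and *ATP22* (0.31, adjusted p = 0.0505) missed the limit narrowly, whereas *TMA10* (0.80) had an adjusted p of 0.14 and passed with the culture as a block (0.0016).

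**Figure D4:**
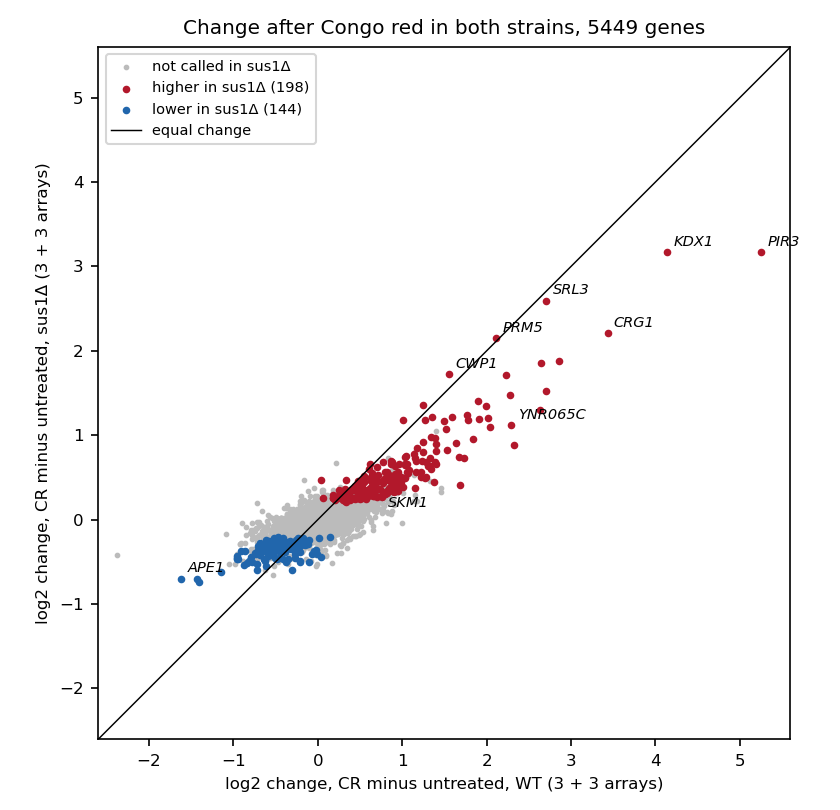
Change after CR in *sus1*Δ cells (vertical axis) against that in WT cells (horizontal axis), both as log2 treated minus untreated over 3 arrays per group, 1 point per gene. Red and blue points are the genes higher and lower in *sus1*Δ cells, and the line marks equal change. Most red points lie below the line, as *PIR3* does at 3.17 against 5.25, and *PRM5* and *CWP1* lie near it.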

How the data were processed

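Total RNA of 3 untreated and 3 CR-treated *sus1*Δ cultures, and of the same WT groups, was hybridised to Affymetrix GeneChip Yeast Genome 2.0 chips. Log2 signals of 5739 probe sets were deposited, computed by the authors in Expression Console by RMA (background correction, quantile normalization and summary of probes). The sources used here name neither the software version nor which arrays were normalized together. The platform annotation gave 5498 probe sets to 1 gene each and 241 had no entry, 23 of which are controls of the chip. For 47 genes with several probe sets 49 dimmer ones were left out, and all 5449 genes matched the R64 annotation by gene ID, which was used for names and gene order.

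In R 4.3.3, limma 3.58.1 (lmFit, eBayes) compared the 2 *sus1*Δ groups over 6 arrays without a block, two-sided, with p-values adjusted over 5449 genes by Benjamini-Hochberg and called under 0.05. The ratio limits of 2 and 0.5 follow the methods of the study, which used a t-test. The interaction came from a model of 12 arrays with 4 group means. Alternatives were a block for culture, all 12 arrays, the methods' t-test, other probe set rules, a filter on dim probe sets (8.15, the 25th percentile of all probe sets), other normalizations and weights, and leaving out each array. The script was tested on simulated data. The number of arrays limits the precision, and p-values cover the spread between these cultures.

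The methods state that each culture was divided, and the numbers were checked. Deviations from the group means of the untreated and treated arrays of cultures 1, 2 and 3 correlated at 0.463, 0.247 and 0.38, and those of different cultures at −0.357 to −0.00134. Calls in the text come from fits that leave this pairing out, as the test of the methods does, unless the block is named.

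The members and the gene lists were chosen with earlier results of these data known, so list counts are descriptions beside the background of all genes. The text names every gene induced at least 2-fold, the 12 largest falls, genes chosen by the study and genes that pass the interaction. It also names 8 genes on each side of the 2-fold limit. The rule further took up to 4 called members per list with the largest change. Not all of these list members are named in the text, and not every list is described. Further members and neighbours were named after their values were seen. Promoter sequences were not analysed here.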

Additional observations from a re-analysis of the deposited data

Results flagged for a closer look

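A CR response that differed between *sus1*Δ and WT cells, by the interaction of limma over 12 arrays, marked 4 genes. The change in *sus1*Δ minus the change in WT cells was −2.08 for *PIR3*, −1.23 for *CRG1*, −1.17 for *YNR065C* and −0.69 for *SKM1* on the log2 scale. Of 19 other settings, *PIR3* passed in 19, *YNR065C* in 9, *CRG1* in 5 and *SKM1* in 4.

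The 241 probe sets without a gene in the annotation, 23 of them controls of the chip, stayed out of the comparisons. Some of the 241 read higher in treated than in untreated arrays. When all probe sets were tested together, 20 of the 241 were higher and 5 lower after CR in *sus1*Δ cells. Of the 5449 genes in the main comparison 3.63% were higher and 2.64% lower. Higher by at least 2-fold were 4 of the 241, against 0.496% of those genes. Probe set 1774824_at changed by 2.11 (adjusted p = 2.7e-05) and 1779659_at by 1.83 (adjusted p = 0.0014). Probe sets 1778149_at and 1777669_at changed by 1.85 and 1.05 (adjusted p = 0.0035 and 0.0026). The first read 9.21, 9.43 and 9.13 without and 11.48, 11.18 and 11.44 with CR in *sus1*Δ cultures 1 to 3. All 4 were also higher in every treated than in every untreated WT array, and which transcripts they read is not given in the sources used here.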

How the results depend on the processing

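All settings kept 0 genes repressed at 2-fold, and the count of genes induced at 2-fold stayed between 22 and 31. Over 18 other fits no gene named in the text from the rule turned its direction, but most of these fits could not have shown a turn. The block, the models of 12 arrays, the t-tests and the trended robust variance leave the change itself as it is. Leaving out 1 array cannot turn a gene whose treated and untreated arrays do not overlap, as in all called genes. The count of higher genes (198) and of lower genes (144) moved further. It was 262 and 247 with the replicate block, 76 and 8 with 12 arrays, 138 and 57 with 12 arrays and the block, 265 and 248 with a trended robust variance, and 91 and 16 at an adjusted p under 0.01. The methods' t-test gave 451 and 622 at an unadjusted p under 0.05 and 61 and 15 after Benjamini-Hochberg, where *BAG7*, *DIA1*, *GSC2*, *YNR065C* and *YPR078C* lost the call. A limit of 1.5-fold gave 67 higher and 6 lower. Leaving out 1 array gave 102 to 160 higher and 29 to 76 lower, and 27 to 31 induced. The fewest remained without the untreated array of culture 1 (102 and 29), and those arms of 2 arrays are assumed to vary like the others. Of 105 called genes named by the rule, 5 lost the call with the block (*ATG20*, *COR1*, *ECM1*, *PAU3* and *PCL1*) 54 with 12 arrays, 65 with the methods' t-test after Benjamini-Hochberg (the 5 above among them), and 23 to 38 with 1 array left out. The block changed no other call of these genes. The genes with an interaction below 0 (4) and above 0 (0) became 33 and 12 with the block, 2 below 0 after quantile normalization or median centring, 1 with array weights, and 1 to 6 below and 0 to 1 above with 1 array left out. Quantile normalization and median centring moved the median of all genes from −0.03 to −0.02. Fits without an array hold fewer samples, and the cause of the other shifts was not tested.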

Other observations

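The genes in this section were picked after their values were seen and stand as values only. They are single genes and say nothing of the groups they belong to, whose other members were not counted. Of genes linked to cortical actin patches, the sites of endocytosis, *VRP1*, the gene of yeast verprolin, rose by 0.49, *ABP1* by 0.36, *CRN1*, the coronin gene, by 0.36, *BBC1* by 0.34, *LSB1* by 0.28 and *ARC35*, a gene of the Arp2/3 complex, by 0.22, with adjusted p between 0.0020 and 0.046 (limma). *VRP1* read 8.68, 8.71 and 8.72 without and 9.21, 9.13 and 9.25 with CR. Of genes linked to polarised growth, the changes were 0.56 for *MSB3* and 0.44 for *MSB4*, which code for GTPase-activating proteins of Rab GTPases, 0.42 for *AXL2*, a bud site gene, 0.35 for *GIC2*, an effector gene of Cdc42, and 0.26 for *RGA2*, a regulator gene of Cdc42. *ASK10*, which codes for a regulator of the glycerol channel Fps1, rose by 0.73 and read 10.13, 10.09 and 10.11 with CR against 9.41, 9.40 and 9.35 without. *CMK2*, a calmodulin-dependent kinase gene, rose by 0.78, and *RIM21*, a sensor gene of the alkaline pH pathway, by 0.57.

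The zinc transporter genes *ZRT1* and *ZRT2* fell by 0.49 and 0.27, and the copper transporter genes *CTR1* and *CTR3* fell by 0.46 and 0.35. *CTR1* read 11.55, 11.73 and 11.72 without and 11.18, 11.32 and 11.13 with CR. Among genes linked to RNA polymerase III or tRNA modification, there were falls of 0.40 for *RPC25*, 0.29 for *RPC11*, 0.24 for *BRF1*, 0.31 for *TRM1*, 0.29 for *TRM7*, 0.30 for *PUS1* and 0.34 for *PUS9*. Of the 342 called genes, 115 higher and 107 lower ones were on none of the 49 gene lists.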
